A study of Mus musculus with 6 samples.

Results

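The 10 genes described here encode the PGC-1 coactivators, the nuclear receptors and DNA-binding factors that work with them, and one secreted target. They were taken by symbol from the deposited table of 16759 genes, all 10 were found, and all 10 were among the 10883 genes tested. They are Ppargc1a and Ppargc1b (the coactivators PGC-1α and PGC-1β), Esrra, Esrrb and Esrrg (the estrogen-related receptors ERRα, ERRβ and ERRγ), Ppara and Ppard (the receptors PPARα and PPARδ), Nrf1 (nuclear respiratory factor), Tfam (mitochondrial transcription factor A) and Vegfa (vascular endothelial growth factor A). RNA came from hind leg muscle of 8-week-old (at the start) male C57BL/6J mice, 3 in the control group (Con) and 3 in the exercise group (EX), with 1 library per mouse. EX mice ran on a treadmill for 60 min a day, 5 days a week, over 6 weeks (22 km in all), and muscle was taken 24 h after the last run; Con mice did not run. Neither group carried a transgene, allele or drug treatment in the sources used here, and the muscle or muscles of the leg that entered each library are not named.

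PGC-1 proteins do not bind DNA themselves. They are recruited by nuclear receptors and other factors to genes of fat oxidation, the citric acid cycle and the respiratory chain, and ERRs, PPARs and NRF-1 are among their best known partners. Tfam, a target of NRF-1, carries the program into the mitochondrion, where it packages mitochondrial DNA and starts its transcription. In skeletal muscle PGC-1α is known as a factor of slow and oxidative fibres that is induced for some hours by a bout of exercise, and VEGF-A, which can be induced through PGC-1α and ERRα, makes capillaries grow.

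Total counts per library ranged from 13845362 to 16240431, and levels are given as CPM, counts scaled to library size with TMM factors. Myh4, the myosin of fast type IIB fibres, was at 50782 ± 290 (SD, n = 3) CPM in Con and 52162 ± 1578 in EX, so all libraries had the transcripts of fast skeletal muscle. Markers of other fibres and cells differed between the groups. The summed CPM of 10 slow fibre markers lay between 167 and 177 in Con and between 430 and 457 in EX, with 8 of 9 tested markers higher and 1 lower. Myh7, the slow myosin, rose by 6.65 on the log2 scale to 102 ± 7.38 CPM in EX. The type IIA myosin Myh2 lay at 743 to 767 CPM in Con and 440 to 457 in EX. Macrophage markers (7 of 8 tested), tendon markers (6 of 9) and adipocyte markers (5 of 8) were higher, and endothelial markers (5 of 10) and Schwann cell markers (4 of 5) were lower. Of the rest, 1 endothelial, 1 satellite cell and 2 type IIB markers were higher and 1 adipocyte marker was lower, and the brown fat marker tested did not pass. The part of these differences in the results below was not tested, and in whole muscle fewer cells of a type and less RNA per cell cannot be told apart.

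Of the 10 regulators, 2 passed a p-value of 0.05 in edgeR's quasi-likelihood test after Benjamini-Hochberg adjustment over all genes tested, and both fell in EX: Ppara and Esrrg. The coactivators Ppargc1a and Ppargc1b, the receptor Esrra, the mitochondrial factors Nrf1 and Tfam, and Vegfa did not pass. Among all genes tested 17.9% passed, 9.11% higher and 8.80% lower in EX, so a count of 2 in 10 is near the background. The balance of 991 higher and 958 lower genes was 780 and 1249 with totals that left out the 20 most abundant genes. The median log2 fold change of the 10 genes was -0.04, against 0.00 for all genes tested, with 8 values below 0 and 2 above. Only for Ppara and Esrrg were the groups' values separate, while 33.7% of all genes tested had groups that did not overlap.

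**Figure D1:**
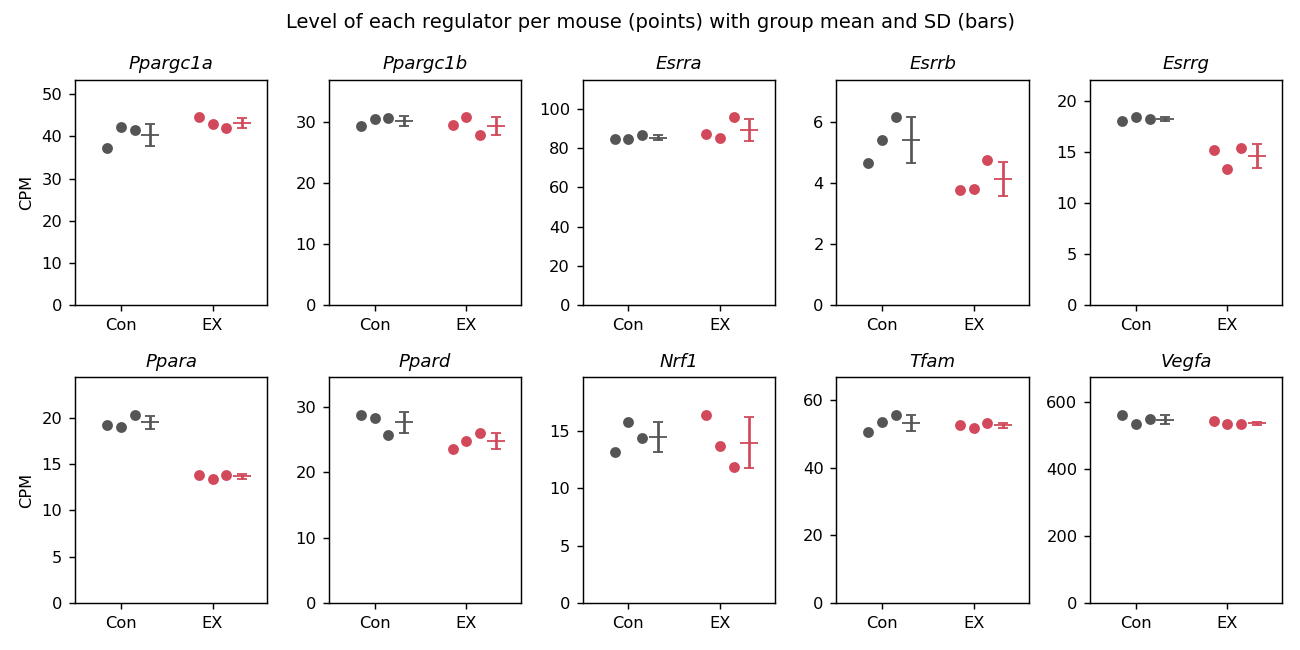
CPM of each of the 10 regulators (vertical axes, each from 0) in the 3 Con and 3 EX mice (points), with the group mean and SD (bars). The EX points of Ppara lie between 13.4 and 13.8 CPM, all below the Con points, those of Esrrg are also all below Con, and the groups overlap in the other panels.

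The coactivator Ppargc1a (gene 19017) had 519, 662 and 661 reads counted in Con replicates 1 to 3 and 705, 675 and 662 in EX replicates 1 to 3. Scaled, these were 37.2, 42.1 and 41.5 CPM in Con and 44.5, 43.0 and 42.0 CPM in EX. The lowest value was that of Con replicate 1, and the lowest EX mouse lay just under the highest Con mouse, so the groups overlapped. The means were 40.3 ± 2.65 (SD, n = 3) and 43.2 ± 1.23 CPM, a log2 fold change of 0.10 with a 95% interval from -0.02 to 0.21 (edgeR adjusted p = 0.252). A rise of more than 0.21, at 24 h after the last run, lies outside that interval. Without Con replicate 1 the log2 fold change was 0.04.

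Transcript length moved with the comparison, and Ppargc1a, Ppargc1b and Ppara are long. The length that the authors' FPKM imply, the count divided by the FPKM and the library total, placed these 3 genes among the 1089 longest of the genes tested, from 5.76 kb up. Of these, EX had 22.3% lower and 5.33% higher, and their median log2 change was -0.08. Of the 1089 shortest, up to 0.839 kb, 4.13% were lower, and the median was 0.06. Esrrg lay in the next group below the longest, from 4.38 to 5.76 kb, where 15.3% were lower. With an offset for this trend in each library, an alternative chosen after seeing the data, the log2 fold change of Ppargc1a was 0.16 and its adjusted p was 0.0468. What made the trend was not tested.

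The promoter upstream of the annotated Ppargc1a start is shown because this gene stands at the head of the pathway. It is taken from RefSeq (GRCm38.p6, minus strand, chr5:51567727-51567975) and runs from base -250 to base -2, where -1 is the base before the start.

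Ppargc1a: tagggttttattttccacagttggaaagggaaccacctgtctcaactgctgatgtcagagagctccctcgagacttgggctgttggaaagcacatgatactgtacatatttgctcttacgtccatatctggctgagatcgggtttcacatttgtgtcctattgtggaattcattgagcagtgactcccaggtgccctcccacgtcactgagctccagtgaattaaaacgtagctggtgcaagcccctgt

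None of the 6 motifs searched here occurred in this window, on either strand, so no base is in capitals. The motifs were the NRF-1 palindrome, GCGCA followed by its reverse complement TGCGC (in 0.782% of the 32851 RefSeq promoter windows of 250 bases), the ERR motif TNAAGGTCA (1.14%), the direct repeat bound by PPARs, AGGTCA and AGGTCA with 1 base between (0.0335%), the MEF2 motif, CTA and TAG with 4 bases between (3.2%), the CREB palindrome TGACGTCA (1.55%) and the ETS core CCGGAAG (6.91%). The PPAR repeat holds the last letters of the ERR motif, so these motifs can share bases. Of the 10 genes, 9 had entries, with 15 windows in all. The entry of Ppargc1b is missing.

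Ppargc1b (gene 170826), the relative of PGC-1α that also acts with ERRs, was at 29.3, 30.6 and 30.7 CPM in Con and 29.5, 30.8 and 27.9 CPM in EX. The values of both groups were interleaved. Its log2 change was -0.04, with a 95% interval from -0.17 to 0.09 (edgeR adjusted p = 0.711), and its sign turned to 0.06 with the length offset. Leaving out EX replicate 3 gave 0.00, and leaving out EX replicate 2 gave -0.08. Because libraries can be scaled in several ways, both coactivators were also compared within each library. The log2 ratio of Ppargc1a to Ppargc1b counts was 0.35, 0.46 and 0.43 in Con and 0.59, 0.48 and 0.59 in EX. All EX ratios lay above all Con ratios, by 0.14 on average. An exact permutation test, two-sided, gave p = 0.10, which is the lowest value possible with 3 mice in each group, and the adjusted p over 3 such ratios was 0.10.

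Per transcript length, Ppargc1a was the more abundant of the coactivators. Its FPKM averaged 6.66 ± 0.492 (SD, n = 3) in Con and 6.87 ± 0.225 in EX, against 3.06 ± 0.104 and 2.87 ± 0.127 for Ppargc1b. Ppargc1a therefore made up 68.5% ± 0.912 of the FPKM of both genes in Con and 70.6% ± 0.954 in EX. Short and long forms of PGC-1α cannot be separated in counts per gene. The implied length of Ppargc1a stayed between 6.13 and 6.16 kb in all 6 libraries.

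Ppara (gene 19013), the receptor that fatty acids bind and that switches on genes of fat oxidation, had the largest change of the 10. Con libraries held 268, 299 and 324 of its counts, and EX libraries 218, 210 and 218. The scaled values were 19.2, 19.0 and 20.3 CPM in Con and 13.8, 13.4 and 13.8 CPM in EX. The EX mice lay close together and below every Con mouse. Its mean was 19.5 ± 0.699 CPM (SD, n = 3) in Con and fell to 13.7 ± 0.250 in EX, by -0.52 on the log2 scale, with a standard error of 0.08 (edgeR adjusted p = 1.4e-05), or 30.1% lower. The change was past the threshold in all 15 alternatives that could test it, from -0.59 to -0.41, the length offset (-0.45) included. Among all genes tested its size stood at percentile 97.0.

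Ppard (gene 19015), the PPAR that is more abundant in muscle, was at 28.8, 28.4 and 25.8 CPM in Con and 23.6, 24.8 and 26.1 CPM in EX. Con replicate 3 lay below EX replicate 3, so the groups overlapped. The log2 fold change was -0.15, with a 95% interval from -0.29 to -0.02 before adjustment (edgeR adjusted p = 0.113). With limma on log2(TPM + 0.1), where the median of all genes was at -0.09, the change was -0.25 (adjusted p = 0.0303). Within libraries, the log2 ratio of Ppara to Ppard counts was -0.58, -0.58 and -0.34 in Con and -0.78, -0.89 and -0.91 in EX. The EX ratios all lay below the Con ratios, with a difference of -0.36 (exact permutation test, two-sided, p = 0.10, adjusted 0.10). Per length, Ppard exceeded Ppara by 3.33 ± 0.301 times in Con and by 4.27 ± 0.213 times in EX.

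The promoters of Ppara and Esrrg are shown because these 2 genes passed the test. For Ppara, the stretch from base -62 to -1 (RefSeq, GRCm38.p6, plus strand, chr15:85735714-85735775) is the part nearest the start that no annotated exon covers. For Esrrg, which has 4 annotated starts in the table, the stretch from base -106 to -1 of the first one is given (plus strand, chr1:187608900-187609005). Capitals mark the NRF-1 palindrome in Ppara and the MEF2 motif in Esrrg.

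Ppara: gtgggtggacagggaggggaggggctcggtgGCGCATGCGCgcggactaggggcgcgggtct

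Esrrg: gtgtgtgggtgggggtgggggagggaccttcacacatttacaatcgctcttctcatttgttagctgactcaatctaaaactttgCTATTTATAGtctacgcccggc

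The palindrome starts at base -31 of Ppara, and it was the only one among the 15 windows of these genes. The MEF2 motif starts at base -22 of Esrrg, and no other window of the 15 held one. These are matches of letters and do not show that a factor binds there. These 2 promoters share none of the motifs searched. The Tfam window held the ETS core, and windows of the other genes held no motif of the 6.

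Of the 3 ERRs, Esrrg passed the test and Esrra and Esrrb did not. Esrrg (gene 26381), the ERR that is enriched in slow and oxidative fibres, was counted 251, 289 and 290 times in the Con libraries and 241, 209 and 242 times in those of EX. This corresponded to 18.0, 18.4 and 18.2 CPM in Con and 15.2, 13.3 and 15.4 CPM in EX. Every EX mouse lay below every Con mouse. Its mean was 18.2 ± 0.190 CPM (SD, n = 3) in Con and fell to 14.6 ± 1.14 in EX, by -0.31 on the log2 scale, with a standard error of 0.08 (edgeR adjusted p = 0.00551), or 19.6% lower. The call held in all 15 alternatives that could test it, most narrowly without EX replicate 2, where the change was -0.25 (adjusted p = 0.0493). Fibre markers moved in both directions beside it. Of the 9 slow fibre markers tested 8 rose, while Myoz2 fell by 0.81, and the type IIA myosin Myh2 fell by 0.75. Their part in the change of Esrrg was not tested.

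Esrra (gene 26379), the most abundant ERR, was at 84.4, 84.8 and 86.9 CPM in Con and 87.0, 85.3 and 95.7 CPM in EX. EX replicate 3 was the highest, and the other EX mice lay in or next to the Con range. The log2 fold change was 0.06, with a 95% interval from -0.03 to 0.16 (edgeR adjusted p = 0.381). With limma on log2(TPM + 0.1), where the median of all genes was at -0.09, it was -0.02. Leaving out EX replicate 3 gave 0.01, and leaving out EX replicate 2 gave 0.10. Within libraries, the log2 ratio of Esrrg to Esrra counts was -2.23, -2.21 and -2.26 in Con and -2.52, -2.68 and -2.64 in EX. The groups did not overlap and differed by -0.38, more than their SDs of 0.03 and 0.08 (exact permutation test, two-sided, p = 0.10, adjusted 0.10).

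Esrrb (gene 26380), best known from stem cells, was the least abundant member. Its counts were 65, 85 and 98 in Con against 60, 60 and 75 in EX, or 4.66, 5.41 and 6.15 CPM against 3.78, 3.82 and 4.76 CPM. EX replicate 3 lay above Con replicate 1, so the groups overlapped. Its log2 change was -0.40, with a standard error of 0.15 (edgeR adjusted p = 0.0664). It passed the threshold without Con replicate 1 (adjusted p = 0.0231), without EX replicate 3 (adjusted p = 0.0477) and when totals left out the 20 most abundant genes (adjusted p = 0.0495). Of the summed FPKM of the 3 ERRs, Esrra made up 89.5% ± 0.327 (SD, n = 3) in Con and 91.9% ± 0.257 in EX, Esrrg 7.41% ± 0.185 and 5.85% ± 0.376, and Esrrb 3.13% ± 0.350 and 2.23% ± 0.274.

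**Figure D2:**
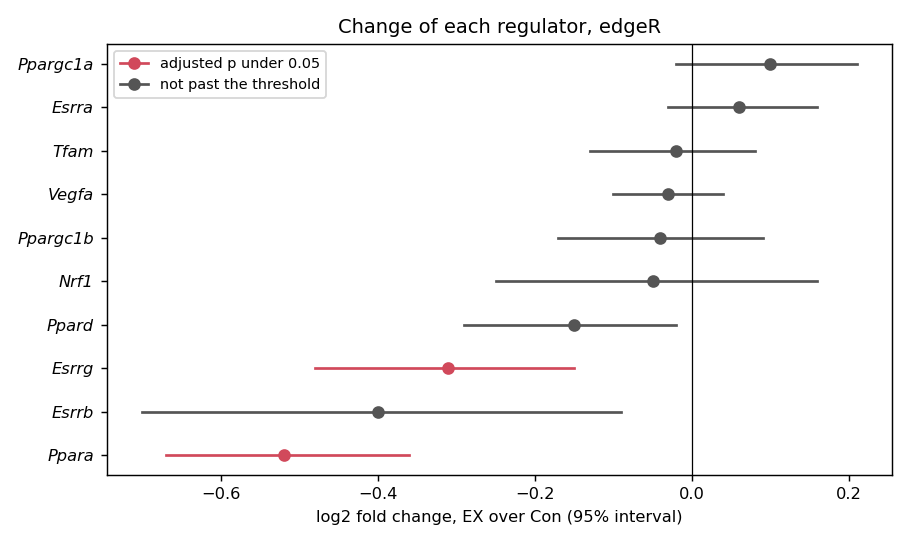
Log2 fold change of each regulator, EX over Con (points), with its 95% interval before adjustment (lines), from edgeR. Ppara (-0.52) and Esrrg (-0.31), in red, passed an adjusted p of 0.05, while Esrrb (-0.40) had the widest interval and did not.

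Nrf1 (gene 18181), which activates nuclear genes of the respiratory chain, was at 13.2, 15.8 and 14.4 CPM in Con and 16.4, 13.7 and 11.9 CPM in EX. The highest and the lowest value of the 6 were both from EX mice. Its log2 change was -0.05, with a 95% interval from -0.25 to 0.16 (edgeR adjusted p = 0.795), and the sign turned without Con replicate 2 or without EX replicate 3. On the FPKM scale the change was -0.19 with limma and a pseudocount of 0.1 (adjusted p = 0.402), where the median of all genes was at -0.06. The implied length of Nrf1 was 2.54, 2.44 and 2.47 kb in Con and 2.50, 2.71 and 2.66 kb in EX, so its FPKM and its counts were not divided alike in all mice. For 8 of the other members the mean implied length differed between groups by at most 0.01 on the log2 scale. For Esrrb it differed by 0.07, with values from 3.43 to 3.88 kb.

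Tfam (gene 21780) was at 50.6, 53.5 and 55.6 CPM in Con and 52.5, 51.8 and 53.2 CPM in EX. All EX values lay inside the range of the Con values. The log2 fold change was -0.02, with a 95% interval from -0.13 to 0.08 (edgeR adjusted p = 0.799). With the sign at 0.01 without Con replicate 3, no direction can be given for it.

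Vegfa (gene 22339) was the most abundant of the 10, with 7827 to 8734 counts per library. It was at 561, 533 and 548 CPM in Con and 542, 533 and 533 CPM in EX. The EX mice lay at the low end of the Con range. The log2 fold change was -0.03, with a 95% interval from -0.10 to 0.04 (edgeR adjusted p = 0.591). With limma on log2(TPM + 0.1), where the median of all genes was at -0.09, the change of Vegfa was -0.12 (adjusted p = 0.0467).

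Ranked by mean FPKM over the 6 libraries, Vegfa (189) was followed by Esrra (45.5), Tfam (14.7), Ppard (9.04), Ppargc1a (6.76), Nrf1 (5.59), Esrrg (3.33), Ppargc1b (2.96), Ppara (2.44) and Esrrb (1.35). Neighbours in this order had ranges that overlapped for Ppargc1a and Nrf1, for Esrrg and Ppargc1b, and for Ppargc1b and Ppara. The other neighbours did not overlap in any library. Ranked by TPM, all 10 genes kept their places. Vegfa stood at percentile 96.1 of the genes tested, Ppargc1a at 42.1 and Ppara at 15.8.

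**Figure D3:**
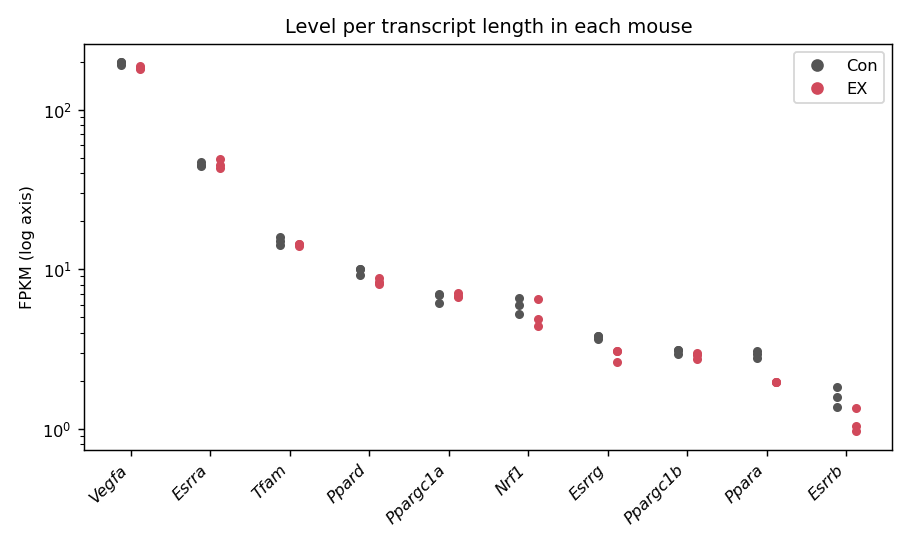
FPKM of each regulator on a log axis, in the 3 Con mice (grey) and the 3 EX mice (red), ordered by the mean over all 6. Levels span from 0.96 FPKM for Esrrb to 197.86 for Vegfa, and the order of neighbours is separated except around Ppargc1a and Nrf1 and from Esrrg to Ppara.

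Likeness over the 6 libraries was measured as the root mean square distance of log2 CPM, centred on each gene's mean, among 7188 genes with at least 5 FPKM. The patterns nearest to that of Ppargc1a were those of Txnl4b (0.012), Ptges3 (0.012) and Snx9 (0.015), against a median distance of 0.11. Nearest to Vegfa were Ppa2, Kcmf1 and Klhl20 (0.014 each, median 0.084). All 6 of these genes had adjusted edgeR p-values above the threshold, as Ppargc1a and Vegfa had. Since they were chosen for nearly the same pattern, this is no separate result.

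The genes that act with these regulators were grouped in 10 lists. Among 12 coactivators and partners of PGC-1, EX had 7 lower and 1 higher, and the list's median log2 change was -0.14. These shares of 58.3% and 8.33% stand beside 8.80% and 9.11% among all genes. The decreases were -0.20 in the nuclear receptor coactivator Ncoa6, -0.19 in the histone acetyltransferase Ep300 and in Ncoa2, and -0.17 in Ncoa3, the acetyltransferase Crebbp and the Mediator subunit Med1. Ep300 was at 68.9, 64.3 and 67.2 CPM in Con and 59.2, 61.1 and 55.4 CPM in EX (edgeR adjusted p = 0.00789). Ncoa1, or SRC-1, rose by 0.16, but passed the threshold in only 7 of 16 alternatives and not in DESeq2 or limma. Perm1, a muscle protein that is induced by PGC-1 and ERRs, was at 216 ± 3.77 CPM (SD, n = 3) in Con and fell to 199 ± 6.05 (log2 fold change -0.12, adjusted p = 0.0306).

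The transcripts of this list are long, with a median of 6.65 kb. With the length offset none of its members was lower and 1 was higher, and its median was -0.09. Without EX replicate 3 only Ncoa3 was still past the threshold among the 7, and with DESeq2 only Ep300 was. The list had 3 lower members without Con replicate 2 and also 3 without EX replicate 2.

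Among 9 corepressors and inhibitors, 1 was higher (11.1%, near the 9.11% of all genes) and none was lower. It was Nrip1, or RIP140, which represses genes of oxidative metabolism through ERRs and PPARs. Nrip1 was at 42.0, 43.8 and 42.6 CPM in Con and 60.1, 57.0 and 59.5 CPM in EX. Both groups were tight and well apart, and the log2 fold change was 0.46 (edgeR adjusted p = 1.0e-07). It was past the threshold in all 16 alternatives. Its change was opposite in sign to those of Ppara and Esrrg, members of the receptor families it binds. Among the 10 regulators, the others of these families, Esrra (0.06), Esrrb (-0.40) and Ppard (-0.15), did not pass. A link between these changes was not tested.

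Of 26 kinases, deacetylases and factors upstream of Ppargc1a, 4 were higher (15.4%, against 9.11% of all genes) and 2 lower (7.69%, against 8.80%), with a median of 0.02. Among the higher were 2 subunits of AMPK, the energy sensor that acts on PGC-1α, with log2 fold changes of 0.33 for Prkag3 and 0.21 for Prkab2. Prkag3, the γ subunit of fast glycolytic fibres, was at 163, 160 and 158 CPM in Con and 196, 206 and 202 CPM in EX. Its groups did not overlap (edgeR adjusted p = 3.8e-07). The calcium-dependent kinases Camk2a and Camk2d rose by 0.11 and 0.16. The CREB coactivator Crtc2 fell by 0.32 (adjusted p = 0.00235) and Atf2 fell by 0.22. With limma on log2(FPKM + 0.1), where the median of all genes was at -0.06, of the 4 that rose only Prkag3 was past the threshold. Without Con replicate 2, 2 were higher, and Atf2 did not pass when Con replicate 1 or either of EX replicates 2 and 3 was left out, which left 1 lower.

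Of 11 other nuclear receptors tested, 2 were lower (18.2%, against 8.80% of all genes) and none was higher. Nr1d1, the clock repressor REV-ERBα, was at 386, 338 and 323 CPM in Con and 193, 202 and 187 CPM in EX. No EX mouse came near the Con range, and the log2 fold change was -0.85 (edgeR adjusted p = 4.0e-13). The thyroid hormone receptor Thra fell by 0.17. Below the filter on low values, Nr4a3 had 1.57, 1.27 and 1.44 CPM in Con and 4.78, 4.88 and 5.57 CPM in EX, a log2 fold change of 1.83 in the fit without a filter (adjusted p = 1.2e-10). Nr4a3 is a receptor that is induced by exercise and by β-adrenergic signals.

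Of 7 factors listed as other nuclear respiratory factors, 3 were lower and none was higher. The changes were -0.24 for Sp1, -0.18 for Gabpb2 and -0.12 for Nfe2l1. Of these only Gabpb2 is a subunit of a nuclear respiratory factor, so the list is wider than its name. The share of 42.9% lower stands against 8.80% of all genes. The calls of Sp1, Gabpb2 and Nfe2l1 were lost with the length offset and without EX replicate 3, and without Con replicate 3 only 1 was lower. Of 15 tested genes that transcribe and maintain mitochondrial DNA, 1 was higher (6.67%, against 9.11% of all genes) and none was lower. It was Mterf2, with a change of 0.26, groups that overlapped and an adjusted p of 0.0495 in edgeR, and it passed in 5 of 16 alternatives, failing without Con replicate 1 or 2 and without EX replicate 1 or 3. Without Con replicate 3, 1 member of the list was lower. The median of this list was -0.04.

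Targets of PPARs fell more often than they rose. Of 22 tested, 7 were lower (31.8%, against 8.80% of all genes) and 1 was higher, with a median of -0.08. The largest decreases were in the lipase Lpl (-0.40), the fatty acid binding protein Fabp3 (-0.33), the long-chain dehydrogenase Acadl (-0.24) and the trifunctional protein subunit Hadhb (-0.20). Lpl, which frees fatty acids from lipoproteins, was at 472, 480 and 505 CPM in Con and 379, 350 and 377 CPM in EX. All EX mice lay below all Con mice (edgeR adjusted p = 1.3e-08). Pdk4, the kinase that closes pyruvate dehydrogenase when fat is burned, was at 615 ± 12.4 CPM (SD, n = 3) in Con and fell to 541 ± 4.87 in EX, a change of -0.19. Lpl is also expressed by fat cells. Of the 8 adipocyte markers tested, 5 rose, Lpl itself fell, and Fabp4 (-0.09) and Pparg (-0.12) did not pass. Mean CPM in Con and EX was 1.43 and 3.32 for Adipoq, 0.715 and 2.13 for Retn, and 1.59 and 4.55 for Cidec. It was 10.2 and 25.1 for Cfd, 405 and 500 for Plin4, 486 and 369 for Lpl, and 229 and 215 for Fabp4. The summed CPM of the 10 listed markers, Lpl included, lay between 1115 and 1170 in Con and between 1121 and 1123 in EX. Lpl, Plin4 and Fabp4 were the most abundant of them, so this sum says little about the others. The part of fat cells in the change of Lpl was not tested.

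The PPAR target that rose was Ucp3, a mitochondrial carrier of muscle. It was at 193, 170 and 166 CPM in Con and 246, 251 and 245 CPM in EX. The groups lay apart, with a log2 fold change of 0.49 (edgeR adjusted p = 4.8e-09). The other 14 did not pass, among them Angptl4 (0.44) and Plin2 (0.19), whose groups did not overlap. Without Con replicate 1, and likewise without EX replicate 2, 2 targets were higher. With the length offset, 8 PPAR targets were lower and 1 was higher. The PPAR targets tested had a median implied length of 1.76 kb.

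Among 16 ERR targets, 2 were higher (12.5%) and 3 lower (18.8%), against 9.11% and 8.80% of all genes, with a median of 0.02. With limma none was higher, and 4 (FPKM) or 6 (TPM) were lower. The median of all genes was at -0.06 (FPKM, pseudocount 0.1) and -0.09 (TPM) there. Cycs, or cytochrome c, rose by 0.18 and Idh3a by 0.15, while Pdk4 fell by 0.19 and Perm1 by 0.12. Of 13 NRF-1 targets, 3 were higher, namely Alas1 (0.19), Cycs (0.18) and Atp5g1 (0.14), and none was lower. This is 23.1%, against 9.11% of all genes. With the length offset 2 were higher and 1 lower, and Atp5g1 was no longer past the threshold (adjusted p = 0.0833 in edgeR). Without Con replicate 3, 2 were lower. Alas1, the first enzyme of haem synthesis, was at 142, 144 and 139 CPM in Con and 160, 165 and 162 CPM in EX (edgeR adjusted p = 8.5e-04). On the TPM scale with limma none of these 3 was past the threshold. Cycs is in both lists, and so the lists are not independent.

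Of 19 further genes of VEGF signalling and hypoxia, 5 were lower (26.3%, against 8.80% of all genes) and none was higher, with a median of -0.08. The VEGF receptor Flt1 was at 164, 166 and 162 CPM in Con and 137, 135 and 135 CPM in EX. On the log2 scale it fell by 0.27 (edgeR adjusted p = 9.1e-06). The coreceptor Nrp1 fell by 0.17, the receptor Kdr by 0.14, and Egln3, a prolyl hydroxylase of hypoxia factors, by 0.36. The hypoxia factor Epas1 fell by 0.13. Flt1 and Kdr are also endothelial markers, and the summed CPM of 10 such markers, these included, lay between 909 and 921 in Con and between 795 and 814 in EX. With the length offset 2 of the 5 remained past the threshold, Flt1 and Egln3. Without Con replicate 2 the list had 3 lower members, as Kdr and Epas1 did not pass.

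**Figure D4:**
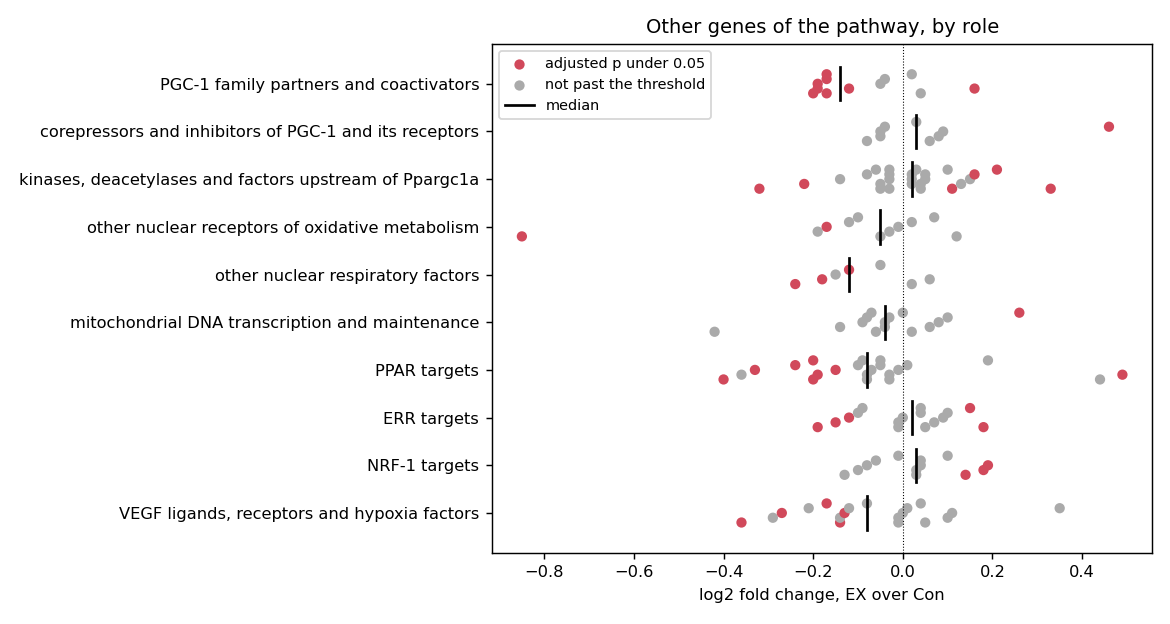
Log2 fold change, EX over Con, of each tested gene in the 10 lists (points, red where the adjusted p was under 0.05), with the median of each list (black lines). Most points lie within 0.4 of 0, the lowest is Nr1d1 (-0.85), and red points lie mainly to the left for coactivators, PPAR targets and VEGF genes.

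**Figure D5:**
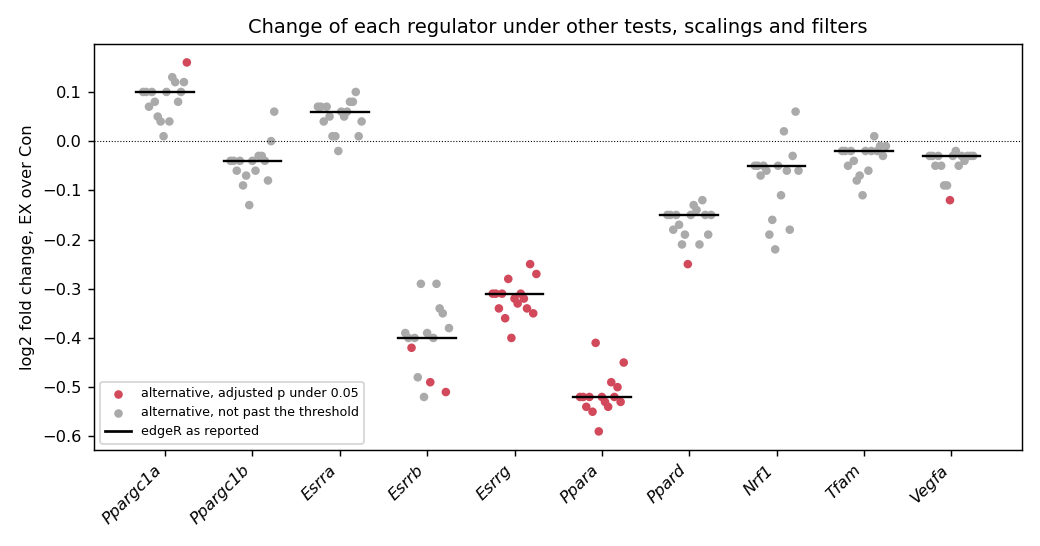
Log2 fold change of each regulator in the analysis as reported (black lines) and under each alternative test, scaling, filter, left-out library or length offset (points, red where the adjusted p was under 0.05). All points of Ppara and Esrrg are red and below 0, while those of Nrf1, Tfam, Esrra and Ppargc1b lie on both sides of 0.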

How the data were processed

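RNA-seq libraries from hind leg muscle of 3 Con and 3 EX mice were analysed. According to the paper, clean reads were matched to GRCm39 with HISAT; the submitters' processing notes name GRCm38.p6, cutadapt, featureCounts and MultiQC. Which build the counts rest on was not settled, so no positions are taken from the data. Per gene and library, the values deposited were estimated counts (not all whole), FPKM and TPM. The 6 columns of group means were not used.

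Counts were rounded, scaled by TMM and compared with edgeR 4.0.16 (R 4.3.3) with its quasi-likelihood test, for genes averaging 1 FPKM or more over the 6 libraries, and p-values were adjusted over all of them (Benjamini-Hochberg). For a gene below that level, values come from an unfiltered fit. Single ratios were compared by exact permutation tests. Alternatives used limma 3.58.1, DESeq2 1.42.0, other scalings and filters, each library left out, a replicate block, and a length offset (lowess span 0.3, added after seeing the data). Tests were also run on simulated counts, only with changes larger than most of those reported here and without a length trend. How well they find small changes was therefore not checked. A 95% interval covers the fit's error only.

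The members and gene lists were chosen with earlier results of these data known. Named were all members and, in each list, at most 4 genes per direction past the threshold without overlap. Angptl4, Crebbp, Epas1, Fabp4, Mterf2, Ncoa3, Nr4a1, Nr4a3, Plin2 and Pparg lie outside this rule and were chosen after their values were seen. Of the symbols in the lists, 2 were matched by another name in RefSeq's gene table (GRCm38.p6). Ucp1 was not analysed here. The values of 1 gene in the list of ERR targets are not reported here.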

Additional observations from a re-analysis of the deposited data

How the results depend on the processing

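The falls of Ppara and Esrrg kept their direction and stayed past the threshold in each of the 15 alternatives that could test them; the filter of 5 FPKM removed both genes, which left 0 members past the threshold. With limma on log2(TPM + 0.1), 4 members passed. DESeq2 called 1228 genes in place of 1949, and Ppara and Esrrg were among them. In place of 991 higher and 958 lower genes, limma, which changes test and scale together, gave 411 and 1037 on log2(FPKM + 0.1) and 340 and 1684 on log2(TPM + 0.1). The median log2 change of all genes tested was -0.06 and -0.09 there, against 0.00 in edgeR. A sign on these scales is therefore not one relative to the other genes. Signs turned for Ppargc1b (0.06 with the length offset), Esrra (-0.02 with limma on TPM), Nrf1 (from -0.18 to 0.06 when 1 library was left out, above 0 at 0.02 and 0.06 without Con 2 or EX 3) and Tfam (from -0.06 to 0.01, above 0 without Con 3), and the cause was not tested. Of the genes in the 10 lists, 39 passed, and between 24 (without EX replicate 3) and 40 (without Con replicate 1) when 1 library was left out. The number of coactivators that were lower ranged from 0 to 8, that of upstream factors that were higher from 1 to 4, that of PPAR targets that were lower from 6 to 13 and that of VEGF and hypoxia genes that were lower from 2 to 6 over the alternatives. With the length offset 3 corepressors were higher, in place of 1.

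With the replicate block 1782 genes and 2 members passed, and 37 list genes. The within-pair ratio differences were 0.14, -0.36 and -0.38, each with an exact sign-flip p of 0.25, the smallest that 3 pairs allow. The block changed no call of a member. Deviations of same-numbered mice correlated at -0.08, -0.05 and -0.03, so the numbers did not pair them. For members with 60 to 98 counts, such as Esrrb, depth limits the precision.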
